A study of Mus musculus with 17 samples.

Results

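The deep-layer cortical spots described here are 600 spots of a spatial transcriptomics experiment on mouse brain, 200 from each of 3 sections, out of 7807 spots with at least 1000 counts and 7827 spots in all. In each section they are the 200 spots with the highest mean of log1p(counts per 10000) over 5 genes, Tbr1, Hs3st2, Myl4, 3110035E14Rik and Rprm. The assay was Visium, in which a cryosection lies on an array of barcoded spots and a spot reports the RNA of the small area above it, which can hold several cells or parts of them. All 3 sections came from flash frozen wild-type mouse brain, cut at 10 µm and stained for NeuN and DAPI. The titles place section 5 at the anterior level and sections 2 and 6 at the posterior level of the anterior thalamic nuclei. Age and sex are not given in the sources used here, and nothing says whether the sections came from separate animals, so every p-value below measures only the spread between 3 sections. The single cells from the anterior thalamic nuclei that the study also sequenced were not analysed here.

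The deep-layer spots held 2144781, 1314964 and 1936563 counts in sections 2, 5 and 6. Their median was 10554, 6447.5 and 9636.5 counts per spot, above the 8888, 5225 and 7011 of all other spots of the same sections, and mitochondrial transcripts made up 8.21% to 10.5% of their counts against 9.21% to 12.4%. Visium arrays reuse one barcode set, and 1500, 1774 and 1623 barcodes were shared between sections 2 and 5, 2 and 6, and 5 and 6. Among deep-layer spots, 14 barcodes were shared between sections 2 and 5, 1 between sections 5 and 6 and 0 between sections 2 and 6.

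The deep layers of the neocortex, layers 5 and 6, hold the cells that send axons out of the cortex. Layer 6 contains corticothalamic neurons, which project to the thalamus and depend on the T-box factor Tbr1, and intratelencephalic neurons, which stay within the cortex. Below them lies layer 6b, a thin sheet descended from the subplate, and beside the lateral cortex lies the claustrum, whose neurons share many transcripts with layer 6 intratelencephalic cells. In a spot, more cells of a type and more RNA per cell cannot be told apart.

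The 5 selection genes were high in these spots because they chose them, and their levels are given as a description with no test. Levels are CPM, counts scaled to a total of 1000000 summed counts, in a section's spots. Tbr1, at chromosome 2, 61802863 to 61814114 in the GRCm38.p6 annotation, had 318, 265 and 267 CPM in the deep-layer spots of sections 2, 5 and 6, and 73.6, 56.1 and 60.9 CPM in all other spots. Hs3st2 (chromosome 7, 121391585 to 121501768), a 3-O-sulfotransferase of heparan sulfate, had 136, 156 and 147 CPM. Myl4 (chromosome 11, 104546017 to 104587215), a myosin alkali light chain best known from atrial muscle, had 185, 161 and 163 CPM. 3110035E14Rik (chromosome 1, 9601267 to 9627142), which RefSeq lists as Vxn, was the most widely detected of the 5, with at least 1 count in 100%, 99.5% and 100% of the spots. Rprm (chromosome 2, 54084093 to 54085552), linked to cell-cycle arrest after p53 activation, had 159, 177 and 197 CPM.

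Not every spot carried the whole set. All 5 genes had a count in 81, 29 and 74 of the 200 spots of sections 2, 5 and 6, and 4 genes in 106, 95 and 100. The score was 0.973, 0.844 and 0.926 at rank 200 and 0.971, 0.842 and 0.922 at rank 201, so the boundary fell in a continuous range. When the rule was repeated on counts thinned to 1000 per spot, 87, 102 and 98 of the 200 spots were chosen again. Each gene could also be read in spots that the other 4 genes chose. Under that choice Tbr1 was 3.002 to 3.44 times its level in the remaining spots over the 3 sections, Hs3st2 4.38 to 5.22 times, Myl4 4.62 to 5.69 times, 3110035E14Rik 3.58 to 4.29 times and Rprm 3.52 to 4.28 times. These ratios use the selection genes themselves and are a description.

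The comparisons were made between summed counts, with the section as a block: against all other spots, against 200 upper-layer spots per section chosen by Cux2, Rasgrf2, Lamp5, Otof and Stard8, and against 200 thalamic spots per section chosen by Tcf7l2, Slc17a6, Prkcd, Ramp3, Tnnt1 and Rgs16. The tests used edgeR's quasi-likelihood F test with Benjamini-Hochberg adjustment over all genes, and a call means an adjusted p under 0.05. Genes that vary together with the selection genes had to differ between spots chosen by them, so a call says only that a difference was repeated across the sections. Against all other spots, 2236 of 13642 genes were higher (16.4%) and 2225 were lower (16.3%), 32.7% in all, without the selection genes. At 2-fold or more, 1.63% were higher and 5.99% lower. Against upper-layer spots 716 of 11485 genes were higher (6.23%) and 800 lower (6.97%), with 1.73% and 1.78% at 2-fold or more. Against thalamic spots 2059 of 11484 were higher (17.9%) and 1978 lower (17.2%), with 6.45% and 6.31% at 2-fold or more. edgeR shares its estimate of spread across genes, so an adjusted p can be far smaller than any permutation of 3 sections against 3 could give.

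The label was checked against markers of cortex and of other regions, and cortical excitatory genes were high. Slc17a7, the vesicular glutamate transporter of cortical neurons, had 1111, 918 and 986 CPM in the deep-layer spots, 842, 668 and 721 CPM in upper-layer spots and 109, 113 and 144 CPM in thalamic spots. Neurod2, a basic helix-loop-helix factor of cortical neurons, had 123 CPM ± 10.1 (SD, n = 3 sections) in the deep-layer spots and 4.08 ± 4.44 in thalamic spots, with no overlap. Of 13 tested genes of cortical excitatory neurons, 12 were higher than in all other spots and 0 lower, with a median log2 fold change of 1.06 against -0.0025 over all genes tested. Against upper-layer spots 4 of the 13 were higher and 4 lower (median 0.05), the lower ones being Neurod1, Mef2c, Camk2a and Nrgn. Striatal and thalamic genes were low. All 11 tested striatal genes and 10 of 12 thalamic genes were lower than in all other spots, and Calb2, a calcium-binding protein abundant in the thalamic spots, had 7.27 CPM ± 3.54 against 604 ± 106 there. Hippocampal genes were mixed: of 7 tested, 4 were lower and 1, Neurod6, higher than in all other spots. The listed hippocampal genes summed to 601 to 732 CPM in the deep-layer spots and 608 to 838 CPM in all other spots. The deep-layer spots were therefore cortical rather than striatal or thalamic by these markers, and the next groups of genes give their depth within cortex.

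Genes of layer 6 corticothalamic neurons were higher than in both the upper-layer spots and the remaining section. Of 13 tested genes of that list, 12 were higher than in upper-layer spots and 0 lower (median log2 fold change 1.84, against -0.0077 over all genes tested), and 12 were higher than in all other spots (median 1.21). Hs3st4 (chromosome 7, 123982366 to 124398989), another heparan sulfate 3-O-sulfotransferase, had 171, 138 and 159.6 CPM in the deep-layer spots and 24.1, 31.0 and 41.6 CPM in the upper-layer spots. The lowest deep-layer section was thus above the highest upper-layer section, and the log2 fold change was 2.28 ± 0.14 (SE). Tle4, a Groucho-family corepressor, had 145, 106 and 116 CPM against 31.8, 25.6 and 43.6 CPM, a log2 fold change of 1.84 ± 0.13. Foxp2, a forkhead transcription factor, had 57.8, 57.8 and 48.0 CPM against 17.3, 18.2 and 6.52 CPM. The level of Foxp2 in thalamic spots was close to this: they had 65.0, 47.9 and 64.2 CPM, and the log2 fold change against them was -0.11 ± 0.15 (edgeR adjusted p 0.611).

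Other genes of the corticothalamic list differed in the same direction at lower levels. Crym, which binds thyroid hormone, had 104 CPM ± 12.6 against 32.0 ± 14.4 in upper-layer spots, and the kainate receptor subunit Grik3 had 84.4 CPM ± 2.92 against 22.6 ± 5.59. Zfpm2, a cofactor of GATA factors, had 26.4 CPM ± 2.05 against 5.15 ± 1.89. Syt6, a synaptotagmin, had 33.5 CPM ± 5.27 against 8.19 ± 2.34. Ntsr1, the neurotensin receptor whose promoter drives a Cre line widely used for layer 6, was scarce at 9.32, 6.84 and 7.75 CPM. Its log2 fold change was 1.16 ± 0.41 against upper-layer spots (edgeR adjusted p 0.0544) and 0.77 ± 0.28 against all other spots (adjusted p 0.0211), so it missed the threshold in the first comparison. Its call in the second was lost with DESeq2 (adjusted p 0.218), without section 2 (edgeR adjusted p 0.298) and without section 6 (adjusted p 0.0766).

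**Figure D1:**
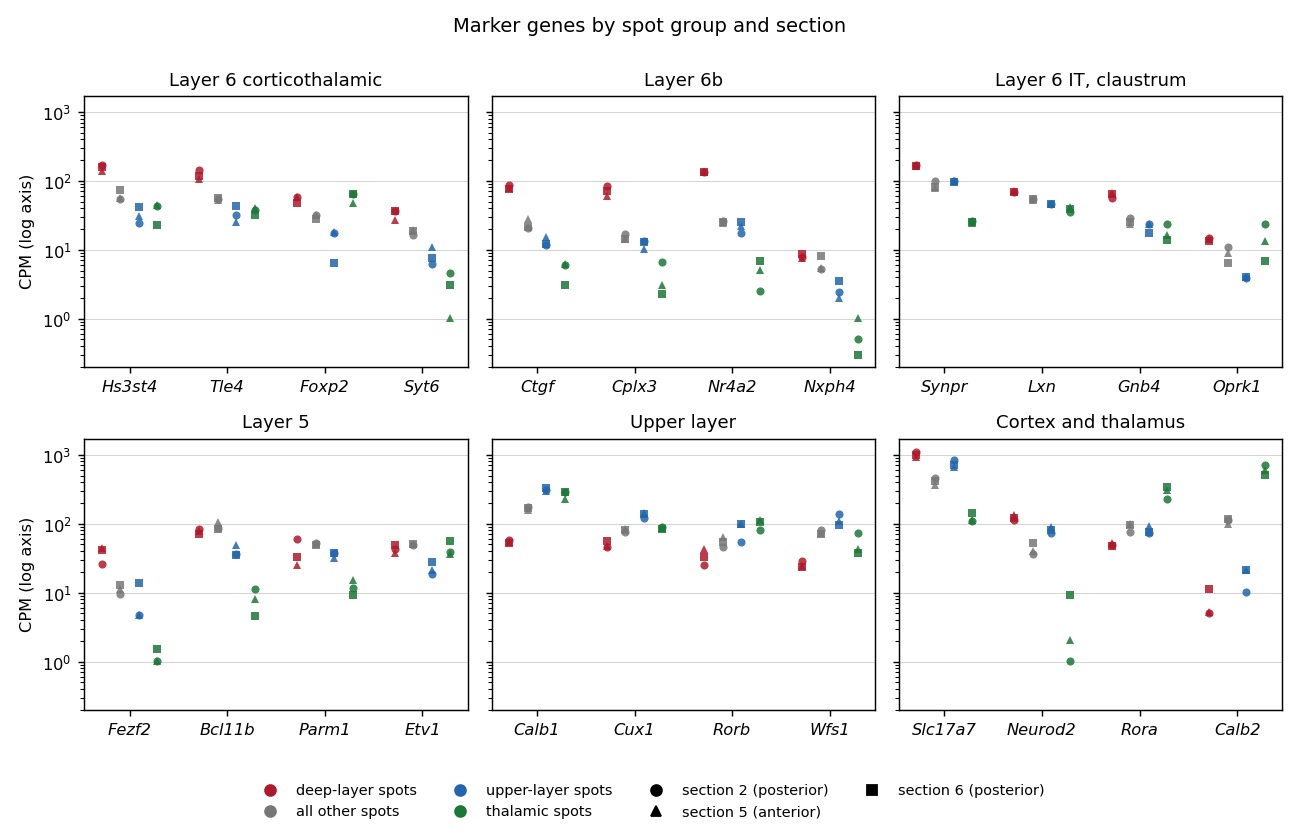
Level in CPM (log axis) of marker genes in deep-layer, all other, upper-layer and thalamic spots, 1 point per section with its own symbol and values below 0.3 drawn at 0.3. Hs3st4, Tle4, Ctgf, Cplx3 and Nr4a2 lie highest in the deep-layer spots of every section, while Calb1, Cux1 and Wfs1 lie lowest there and Foxp2 is as high in thalamic spots.

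Nr4a2 and Ctgf, which mark layer 6b, were among the 10 genes with the highest log2 fold changes against upper-layer spots, though the layer 6b list as a whole was mixed. Of 9 tested genes, 6 were higher than in upper-layer spots and 0 lower (median log2 fold change 1.56), while of 10 tested against all other spots 4 were higher and 2 lower (median 0.38). The lower pair was Cobll1 and Lpar1, and neither passed as lower with DESeq2, without the section block, or without section 2 or section 6. Lpar1 was higher instead, with a log2 fold change of 0.33, when the other spots were limited to the depth range of the deep-layer spots. Nr4a2 (chromosome 2, 57106830 to 57124003), an orphan nuclear receptor also known as Nurr1, had 134, 135 and 136 CPM in the deep-layer spots. It had 17.3, 22.3 and 25.6 CPM in upper-layer spots and 2.54, 5.10 and 6.88 CPM in thalamic spots, so the 3 groups did not overlap. Ctgf (chromosome 10, 24595442 to 24598683), a secreted matrix-associated protein also called Ccn2, had 86.3, 77.6 and 75.4 CPM against 11.6, 15.5 and 12.04 CPM in upper-layer spots. Cplx3, a complexin that binds the vesicle fusion machinery, had 84.4, 59.3 and 71.8 CPM against 13.5, 10.1 and 13.04 CPM. The log2 fold changes of Nr4a2, Ctgf and Cplx3 against upper-layer spots were 2.63 ± 0.14, 2.63 ± 0.17 and 2.54 ± 0.17. Nxph4, a neurexophilin used as a layer 6b marker, had only 8.10 CPM ± 0.607 against 2.65 ± 0.772, a call lost with DESeq2 (adjusted p 0.243), without section 2 (edgeR adjusted p 0.0637) and without section 5 (adjusted p 0.0623). Against all other spots its log2 fold change of 0.43 ± 0.27 did not pass (edgeR adjusted p 0.225).

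Genes shared by layer 6 intratelencephalic neurons and claustrum were higher by smaller margins. Of 7 tested, 4 were higher than in upper-layer spots (median log2 fold change 0.57), and of 9 tested against all other spots 6 were higher and 1 lower (median 0.65). Synpr, the vesicle protein synaptoporin, had 167, 166 and 164 CPM against 100.2, 97.8 and 96.3 CPM in upper-layer spots, with little spread in either group. Gnb4, a G protein beta subunit, had 62.0 CPM ± 5.39 against 21.6 ± 3.49. Oprk1, the kappa opioid receptor, had 14.3 CPM ± 0.764 against 3.97 ± 0.103. Lxn, the carboxypeptidase inhibitor latexin, had 69.5 CPM ± 0.39 against 46.6 ± 0.0968, a call not shared by DESeq2 (adjusted p 0.0653) or by the rule on thinned counts (edgeR adjusted p 0.0766). The lower gene against all other spots was Penk, an opioid precursor that is also a striatal marker.

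Layer 5 genes differed in direction between the comparisons. Against upper-layer spots, 3 of 9 tested extratelencephalic genes were higher and 0 lower (median log2 fold change 0.16), and of 7 tested intratelencephalic genes 4 were higher, Rspo2, Sulf2, Deptor and Etv1, and 1 lower (median 0.93). Against all other spots, 2 of 8 tested intratelencephalic genes were higher and 1 lower (median -0.02), a lower count that was 0 without section 2. Also against all other spots, 2 of 10 tested extratelencephalic layer 5 genes were higher and 6 lower (median log2 fold change -0.31). Fezf2, the transcription factor that specifies subcortically projecting neurons and is also made in layer 6, had 26.1, 44.9 and 41.8 CPM against 9.55, 11.2 and 13.04 CPM in all other spots. Bcl11b, known as Ctip2 and abundant in layer 5 and in striatum, had 83.5, 79.1 and 70.7 CPM against 87.2, 107 and 83.9 CPM. It was lower in every section and the groups did not overlap, but the difference did not pass (edgeR adjusted p 0.0778). Against upper-layer spots Bcl11b was higher, with 77.8 CPM ± 6.46 against 40.5 ± 8.10. Parm1 had 59.2, 25.1 and 32.5 CPM in the deep-layer spots and 37.1, 31.7 and 37.6 CPM in upper-layer spots, and the groups overlapped. Among near-projecting genes 1 of 8 tested was higher and 4 were lower than in all other spots, with 0 higher and 4 lower without section 5. Tshz2, a zinc-finger gene of that cell type, had 18.5 CPM ± 3.12 against 39.8 ± 5.81. Against upper-layer spots 0 of 6 tested near-projecting genes were higher and 1, Htr2c, lower (median log2 fold change 0.08). That call was lost with DESeq2 (adjusted p 0.0832). The listed near-projecting genes summed to 106 to 123 CPM in deep-layer, 113 to 130 CPM in upper-layer and 340 to 348 CPM in thalamic spots.

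Genes of the upper layers were low. Of 12 tested, 10 were lower than in all other spots and 0 higher (median log2 fold change -1.08), although with 400 spots per section 6 were lower and 1 higher, and with the rule applied to thinned counts 7 were lower and 2 higher. Calb1, a calcium buffer, had 57.3, 54.8 and 52.7 CPM against 304, 297 and 328 CPM in upper-layer spots. Cux1, a homeobox factor, had 50.1 CPM ± 5.41 against 134 ± 10.3, and Wfs1, an endoplasmic reticulum protein, had 25.5 CPM ± 2.56 against 114 ± 21.1. Rorb, a nuclear receptor of layer 4, had 33.4 CPM ± 8.74 against 84.1 ± 25.3. Among genes of at least 20 CPM in upper-layer spots, the lowest log2 fold change that passed, -3.09 ± 0.17, was that of Ddit4l, an inhibitor of mTOR signalling, at 10.8 CPM ± 2.31 against 93.7 ± 17.9.

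Transcription factors of projection neurons divided along the same line. Of 35 tested, 14 were higher and 8 lower than in upper-layer spots (median log2 fold change 0.16). Those higher were Nr4a2, Zfpm2, Fezf2, Foxp2, Tle4, Otx1, Neurod6, Bcl11b, Etv1, Sox5, Nfia, Nfib, Neurod2 and Lmo3. Those lower were Bhlhe22, Emx2, Neurod1, Cux1, Rorb, Lhx2, Pou3f2 and Mef2c. Bhlhe22, a basic helix-loop-helix factor, had 16.2 CPM ± 2.56 against 65.5 ± 3.61. Etv1 had 43.2 CPM ± 5.26 against 22.8 ± 4.77 in upper-layer spots and 49.9 ± 1.37 in all other spots, and the second difference did not pass (edgeR adjusted p 0.308). Neurod6 had 99.6 CPM ± 12.7 against 37.9 ± 6.26 in upper-layer spots, a call not shared by DESeq2 (adjusted p 0.676). DESeq2 also did not call Neurod2 (adjusted p 0.896) or Lmo3 (adjusted p 0.173).

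The genes with the highest fold changes outside the selection set included a pair named for immune receptors. Trbc2 (chromosome 6, 41546730 to 41548181), the constant region 2 of the T cell receptor beta chain, had 97.4, 103 and 107 CPM in the deep-layer spots. In upper-layer spots it had 12.04, 11.5 and 12.5 CPM, in thalamic spots 10.7, 3.06 and 2.29 CPM and in all other spots 13.9, 11.5 and 11.5 CPM. Ighm (chromosome 12, 113418826 to 113422730), the constant region of the immunoglobulin mu heavy chain, had 159.9, 158 and 156 CPM against 19.8, 20.2 and 17.6 CPM in upper-layer spots. No section of any other group reached the lowest deep-layer section for either gene. The log2 fold changes against upper-layer spots were 3.07 ± 0.17 for Trbc2 and 3.04 ± 0.13 for Ighm, and against all other spots 3.08 ± 0.10 and 2.79 ± 0.08.

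Both transcripts were spread over many spots rather than a few. Trbc2 had a count in 52.8% ± 7.37 of deep-layer spots, 11% ± 2.18 of upper-layer spots and 4% ± 4.33 of thalamic spots, and Ighm in 62.8% ± 8.22, 15.2% ± 2.75 and 4.67% ± 1.89. With each spot thinned to 1000 counts these shares were 8.5% ± 3.28, 1.33% ± 0.764 and 0.333% ± 0.289 for Trbc2 and 14% ± 2.50, 2.17% ± 1.26 and 0.667% ± 0.764 for Ighm. The median depth was 4731.5 to 9420.5 counts in thalamic spots and 7331 to 10120 in upper-layer spots. Of 16 other lymphocyte genes, listed after these values had been seen, 9 had 0 counts in the 5396308 counts of all deep-layer spots, among them Cd3d, Cd3e, Cd3g, Cd8a and Ms4a1. The 16 genes together had 23 counts there, of which Ptprc, a pan-leukocyte gene, held 10, against 552 counts of Trbc2 and 854 of Ighm. They were scarce elsewhere too, with 484 counts in the 52998244 counts of all other spots, where Cd3d, Cd3e and Cd3g had 2 each and Cd8a 1. Trbc1, the near-identical neighbour of Trbc2, had 0 counts in the deep-layer spots, and how the counting divided reads between this pair is not given in the sources used here. The counts do not show whether either transcript came from a rearranged gene.

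Further genes with the highest fold changes against upper-layer spots encode receptors, secreted proteins and regulators. Nxph3, a neurexophilin that binds alpha-neurexins, had 49.4, 50.95 and 38.7 CPM against 2.89, 7.42 and 8.03 CPM. Sstr2, a somatostatin receptor, had 50.2 CPM ± 8.41 against 7.47 ± 3.11, and Rxfp1, the relaxin receptor, had 20.7 CPM ± 0.374 against 3.56 ± 1.83. Arhgap25, a GTPase-activating protein, had 23.6 CPM ± 3.97 against 2.74 ± 1.21, Rai14 23.8 CPM ± 3.20 against 2.74 ± 1.27 and Gadd45a, a growth-arrest gene, 47.0 CPM ± 4.05 against 8.01 ± 4.02. All of these were higher in the deep-layer spots of all 3 sections. Pcp4, a modulator of calmodulin, combined a high level with a wide margin, at 1541 CPM ± 89.2 against 379 ± 32.5.

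**Figure D2:**
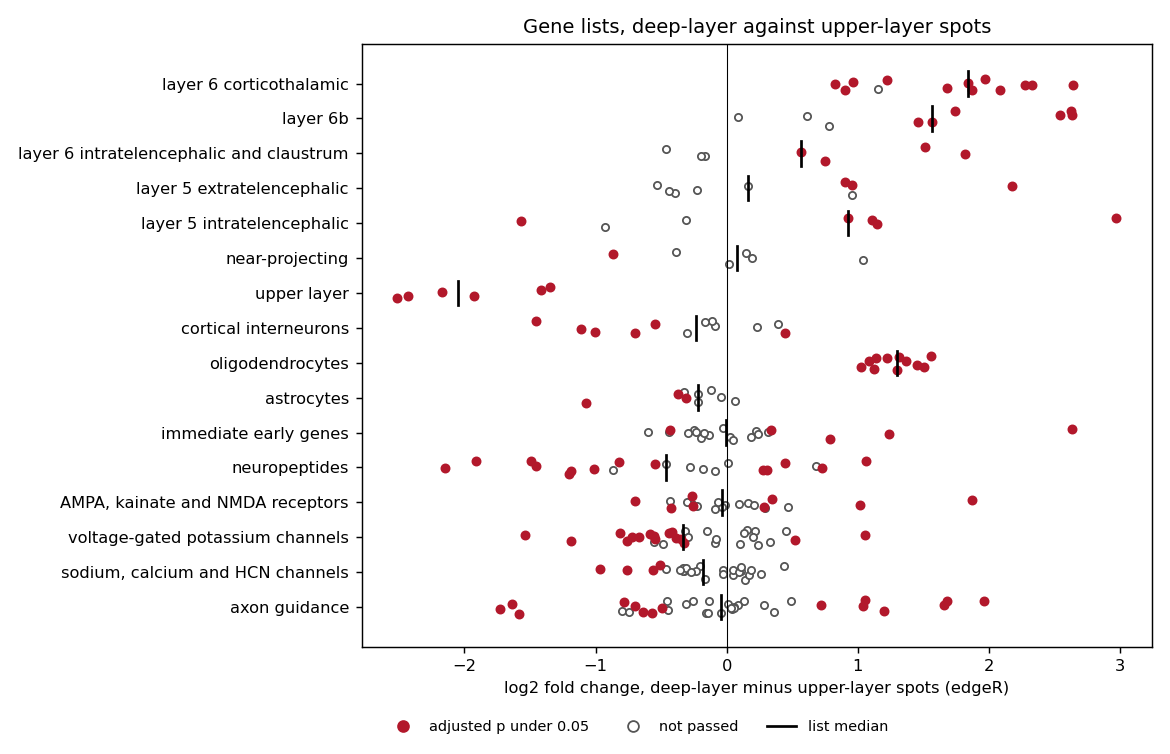
Log2 fold change (edgeR, deep-layer minus upper-layer spots) of each tested gene in 16 gene lists, without the genes of either selection rule; filled points have an adjusted p under 0.05 and the bar is the list median. Corticothalamic and oligodendrocyte lists lie to the right, the upper-layer list to the left, and most channel and receptor genes near 0.

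The families of the selection genes did not move as wholes. Of 17 tested heparan sulfate enzymes, 5 were higher and 3 lower than in upper-layer spots (median log2 fold change 0.22). The 3-O-sulfotransferases went in both directions: Hs3st5 had 13.5 CPM against 3.46 CPM (log2 fold change 1.91 ± 0.34), while Hs3st1 had 14.2 CPM ± 1.93 against 31.6 ± 4.01, a call lost with 400 spots per section (edgeR adjusted p 0.0918). The heparan sulfate 6-O-endosulfatase Sulf2 had 81.9 CPM ± 6.48 against 36.5 ± 9.004. Of 6 tested myosin light chain genes none was higher and 1, the kinase Mylk, was lower, a call lost under 9 of 11 alternatives, among them each section left out (edgeR adjusted p 0.106 to 0.202) and DESeq2 (adjusted p 0.427).

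Receptor and channel genes were called in differing numbers from list to list. Over all genes tested against upper-layer spots, 6.23% were higher and 6.97% lower. Of 21 tested ionotropic glutamate receptor genes, 4 were higher than in upper-layer spots (Grik3, Grik4, Gria1 and Grik5) and 4 lower (Cacng3, Grin2b, Grin1 and Grin2a). Of these 8, only Grik3 and Cacng3 passed under all 11 alternatives. The counts were 2 higher and 1 lower with DESeq2 or without the section block, 4 and 2 without section 2, and 2 and 2 without section 6. Grik3, Grik4 and Grik5 encode kainate receptor subunits. Grik4 had 29.1 CPM ± 1.45 against 14.5 ± 6.67, and did not pass without section 6 (edgeR adjusted p 0.0839) or with the rule on thinned counts (adjusted p 0.481). Of 14 tested GABA receptor genes 2 were higher and 4 lower, with 1 higher without section 5 or section 6. Gabra5, the alpha subunit of extrasynaptic receptors, had 68.5, 38.8 and 67.1 CPM against 30.8, 27.7 and 31.1 CPM, and Gabrd, the delta subunit, had 84.2 CPM ± 3.62 against 146 ± 12.6. Among 32 tested voltage-gated potassium channel genes 2 were higher, Kcna6 and Kcnip3, and 14 were lower (median log2 fold change -0.34). The count of lower ones was 3 with DESeq2, 9 without the section block, 9 without section 2 and 8 without section 5. Levels were, for Kcna6, 92.8 CPM ± 8.09 against 45.0 ± 2.04 and, for Kcnq5, 56.8 CPM ± 7.87 against 100.7 ± 6.93. Of 26 tested sodium, calcium and HCN channel genes 0 were higher and 4 lower, close to the 13.2% called in either direction over all genes. The auxiliary calcium channel subunit Cacna2d1 had 129 CPM ± 10.6 against 218 ± 17.0.

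Among receptors for modulators was Chrna4, the nicotinic alpha subunit of the most common brain receptor. Chrna4 had 47.1, 46.4 and 42.9 CPM against 13.004, 12.8 and 15.6 CPM in upper-layer spots, and the thalamic spots were higher than both, with 116, 105 and 115 CPM. Adra1b, an adrenergic receptor, had 31.4 CPM ± 8.45 against 12.3 ± 1.60. Over all 17 tested receptors for serotonin, acetylcholine, dopamine and noradrenaline, 3 were higher, Drd5, Chrna4 and Adra1b, and 3 lower, Htr7, Htr2c and Chrm1, than in upper-layer spots. Without section 5 the counts were 2 higher and 1 lower, as with DESeq2. Drd5, a dopamine receptor, rested on 17 counts against 3.

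Adhesion and guidance genes included several with a clear deep-layer level. Of 35 tested guidance genes 7 were higher and 8 lower than in upper-layer spots, beside 6.23% and 6.97% over all genes tested. The lower count was 3 with DESeq2, 4 without section 2 and 5 without section 5. Sema3e, a secreted semaphorin, had 32.6, 44.1 and 45.4 CPM against 11.1, 10.8 and 15.0 CPM, and Sema5b had 33.6 CPM ± 2.86 against 8.62 ± 2.53. Among those lower were the netrin receptor Unc5d, at 21.1 CPM ± 4.67 against 63.6 ± 6.18, and Plxnd1, the Sema3e receptor, at 21.8 CPM ± 6.87 against 61.8 ± 4.35. Sema3e was thus higher, and its receptor lower, in the deep-layer spots. Of 20 tested cadherins and protocadherins 5 were higher and 5 lower, with 3 higher by DESeq2, without section 2 or without section 5. Cdh9 had 37.3, 14.4 and 29.9 CPM against 6.74, 6.74 and 7.02 CPM, and Pcdh20 had 8.38 CPM ± 3.31 against 28.4 ± 5.01.

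Neuropeptide and interneuron genes differed from upper-layer spots in both directions. Of 21 tested neuropeptide genes 9 were lower and 5 higher, Grp, Cort, Sst, Chgb and Chga (median log2 fold change -0.46). Vip, vasoactive intestinal peptide, had 48.0, 15.97 and 26.9 CPM against 73.7, 107 and 86.3 CPM, a call not shared by DESeq2 (adjusted p 0.0606). Sst had 267, 411 and 454 CPM against 228, 226 and 364 CPM, higher within each section though the 2 groups overlapped across sections, with a log2 fold change of 0.44 ± 0.11. That call for Sst was lost without section 5 (edgeR adjusted p 0.332), without the section block (adjusted p 0.171) and with DESeq2 (adjusted p 0.815). Tac2, a tachykinin precursor, had 4.84 CPM ± 3.07 against 23.6 ± 4.98, and Npy had 192 CPM ± 27.0 against 281 ± 19.6. Over 12 tested interneuron genes 1, Sst, was higher and 5 lower, with 3 lower by DESeq2.

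Immediate early genes, which neurons induce within minutes of activity, were mostly higher than in the rest of the section. Of 20 tested, 15 were higher than in all other spots and 0 lower (median log2 fold change 0.65). Against upper-layer spots 4 were higher, Nr4a2, Nr4a3, Arc and Egr1, and 1, Bdnf, was lower, with a median of -0.0016. Egr1 did not pass without section 5 (edgeR adjusted p 0.0934), and Bdnf was lost under 9 of 11 alternatives, among them each section left out (adjusted p 0.0898 to 0.336). Arc, which acts at synapses, had 285, 484 and 429.6 CPM against 144, 274 and 280.4 CPM. Nr4a2 stands in this list and in the layer 6b list. Nr4a3 had 34.4 CPM ± 4.09 against 14.2 ± 3.14, and Fos had 88.5 CPM ± 19.8 against 86.3 ± 21.0. Sections 5 and 6 had more Arc and Fos than section 2 in both groups.

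Oligodendrocyte transcripts separated the deep-layer from the upper-layer spots. All 11 tested were higher, with a median log2 fold change of 1.30. Mbp, a myelin protein, had 2459, 2221 and 2406 CPM against 817, 980.4 and 1066 CPM. The summed level of the 11 genes was 6483 to 6599 CPM against 2093 to 2886 CPM. Against all other spots all 11 were lower (median -0.50), but this direction turned when those spots were limited to the depth range of the deep-layer spots: then 7 were higher and 0 lower, and Mbp had a log2 fold change of 0.29. Of 9 astrocyte genes 0 were higher and 3 lower than in upper-layer spots, and 0 were lower without section 5. Of 8 microglial genes 1, C1qa, was lower, beside 6.97% over all genes tested against upper-layer spots. That call was lost under 9 of 11 alternatives, among them without section 2 (edgeR adjusted p 0.42) and without section 5 (adjusted p 0.203). The part of myelinating cells in the other differences was not tested.

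Against the thalamic spots, the target region of corticothalamic axons, cortical genes were far higher. Nptx1, a neuronal pentraxin, had 514, 352 and 401.2 CPM against 14.2, 7.14 and 19.1 CPM. In the other direction Zic1, a zinc-finger factor, had 6.09 CPM ± 1.65 against 455 ± 46.3, and Ntng1, a netrin-related adhesion protein, had 12.9 CPM ± 0.919 against 356 ± 37.4. Genes of layer 6 corticothalamic neurons were higher in 9 of 13 tested and lower in 0 (median log2 fold change 1.76). Foxp2, Nfia, Ntsr1 and Thsd7b were the 4 that did not pass.

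Within the 600 spots, transcripts that the rule did not use changed with the rank of the selection score. Foxp2 went from 77.02, 91.0 and 68.8 CPM in the 50 top-ranked spots of sections 2, 5 and 6 to 32.3, 22.5 and 34.8 CPM at ranks 151 to 200, and was 8.98, 23.0 and 13.3 CPM at ranks 601 to 1000. Ighm went from 229, 212 and 226 CPM to 159.6, 106 and 102 CPM, and then to 18.2, 29.7 and 21.8 CPM. Ctgf and Nr4a2 followed no steady order: Nr4a2 in section 6 had 75.3 CPM in the top 50 spots and 215 CPM at ranks 151 to 200. Slc17a7 stayed between 801 and 1187 CPM from rank 1 to 200 in all sections. Rasgrf2, one of the upper-layer selection genes, had 39.9, 25.7 and 55.2 CPM at ranks 151 to 200 and 138, 127 and 128 CPM at ranks 601 to 1000. These are levels in spots ordered by the score and carry no test.

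**Figure D3:**
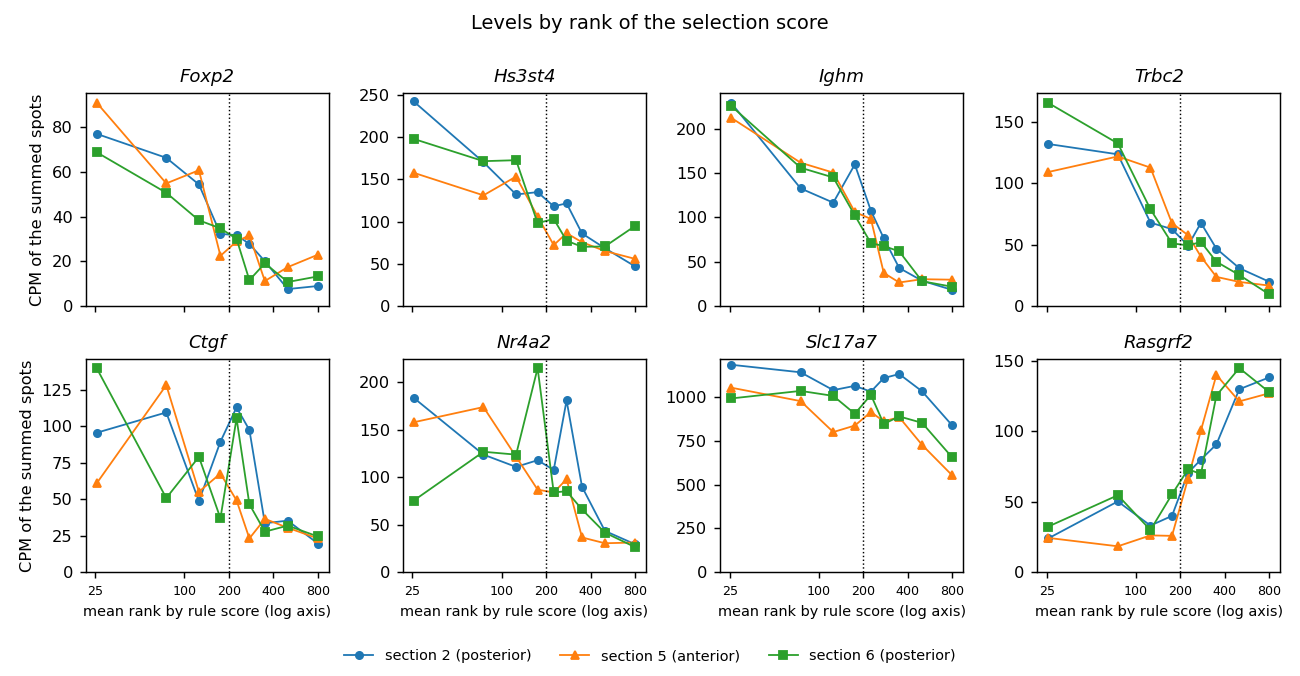
Level in CPM of 8 genes in spots grouped by rank of the selection score (log axis, mean rank of the group), 1 line per section, with the dotted line at rank 200. Foxp2, Hs3st4, Ighm and Trbc2 mostly fall with rank, Ctgf and Nr4a2 fall unevenly, Slc17a7 changes little up to rank 400 and Rasgrf2 climbs beyond rank 200.

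The deep-layer spots were also not uniform. Nr4a2 had a count in 88, 71 and 100 of the 200 spots of sections 2, 5 and 6, Hs3st4 in 160, 106 and 144, and Ctgf in 45, 55 and 71. Spots with none of the 3 genes numbered 26, 55 and 24, and spots with all 3 numbered 25, 20 and 30. With spots thinned to 1000 counts, the share with a count was 10.3% ± 0.764 for Nr4a2, 14.2% ± 1.44 for Hs3st4 and 5.83% ± 2.02 for Ctgf. In the thalamic spots these shares were 0.5% ± 0.866, 3.33% ± 1.76 and 0.5% ± 0.5. The 3 genes and the genes compared below were picked after levels had been seen, so the splits are descriptions with no test. Deeper spots show a given gene more often: spots with an Nr4a2 count had medians of 11727.5, 7178 and 9806 counts against 9664, 6058 and 9494 in those without.

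Spots with Nr4a2 carried more of several intratelencephalic, claustral and layer 6b transcripts. Synpr had 277 CPM ± 46.0 in spots with an Nr4a2 count and 75.4 ± 15.1 in spots without, and Gnb4 had 100.4 ± 12.1 and 30.1 ± 5.17. Gfra1, a co-receptor of the GDNF family, had 49.2 ± 8.76 and 15.3 ± 3.08. All 3 were higher in all 3 sections, and all 3 were also higher in every section in spots with Hs3st4. Among layer 6b genes, Nxph4 had 13.2 CPM ± 0.827 with and 3.89 ± 1.29 without Nr4a2, Cplx3 96.4 ± 15.8 and 52.5 ± 15.1, and Ctgf 102 ± 20.2 and 62.8 ± 9.16. Cux2, otherwise an upper-layer gene, had 40.8 CPM ± 2.70 with and 17.4 ± 6.95 without Nr4a2. Rorb went the other way, with 25.3 ± 7.10 against 40.3 ± 8.98, as did Fezf2, with 29.0 ± 10.7 against 44.7 ± 8.95. Both were lower in every section. By mean level, corticothalamic genes differed less or not at all. Foxp2 had 59.5 ± 6.57 against 50.4 ± 5.56, Tle4 139 ± 10.2 against 109 ± 27.4 and Hs3st4 185 ± 7.14 against 132 ± 20.0. These 3 were higher with Nr4a2 in every section. In section 6 Tle4 and Hs3st4 were 1.33 and 1.38 times as high with Nr4a2, above Ctgf at 1.09 and Cplx3 at 1.28 times. Syt6, at 32.6 ± 1.08 against 34.7 ± 9.55, was higher in 1 section.

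Spots with Hs3st4 carried more of the corticothalamic and layer 6b transcripts that were compared. Of the corticothalamic list only Foxp2, Tle4 and Syt6 were compared in this split. Foxp2 had 66.5 CPM ± 11.96 with and 28.0 ± 4.36 without Hs3st4, Tle4 had 139.7 ± 14.6 and 79.8 ± 12.5, and Syt6 had 38.5 ± 5.87 and 19.9 ± 2.45. Cplx3 had 88.3 ± 9.99 and 28.0 ± 8.88. Each was higher in all 3 sections. Etv1, a layer 5 gene, had 36.9 ± 9.28 with and 55.9 ± 4.63 without, and the neurofilament gene Nefm had 291 ± 42.6 and 399.98 ± 6.36.

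Spots with Ctgf stood apart by layer 6b and myelin transcripts together. Cplx3 was 14.4, 4.49 and 4.98 times as high in spots with Ctgf as in those without, Nxph3 3.09, 1.92 and 2.14 times and Sema5b 2.78, 2.51 and 1.93 times. Ermn, an oligodendrocyte gene, had 93.1 CPM ± 2.13 with and 47.9 ± 2.02 without Ctgf, and Mbp had 3156 ± 608 and 2057 ± 24.9. Genes of inhibitory and large-calibre neurons were lower in all 3 sections: Gad1, which makes GABA, had 152 ± 13.9 against 244 ± 6.97, Pvalb 106 ± 11.5 against 195 ± 43.7 and Nefm 204 ± 49.6 against 366 ± 38.6. Haemoglobin transcripts were higher with Ctgf in all sections too, with Hbb-bs 1.65, 6.04 and 1.89 times as high, and their part in these differences was not tested. Trbc2 stood at 0.516, 0.742 and 0.9998 times its level in spots without Ctgf.

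**Figure D4:**
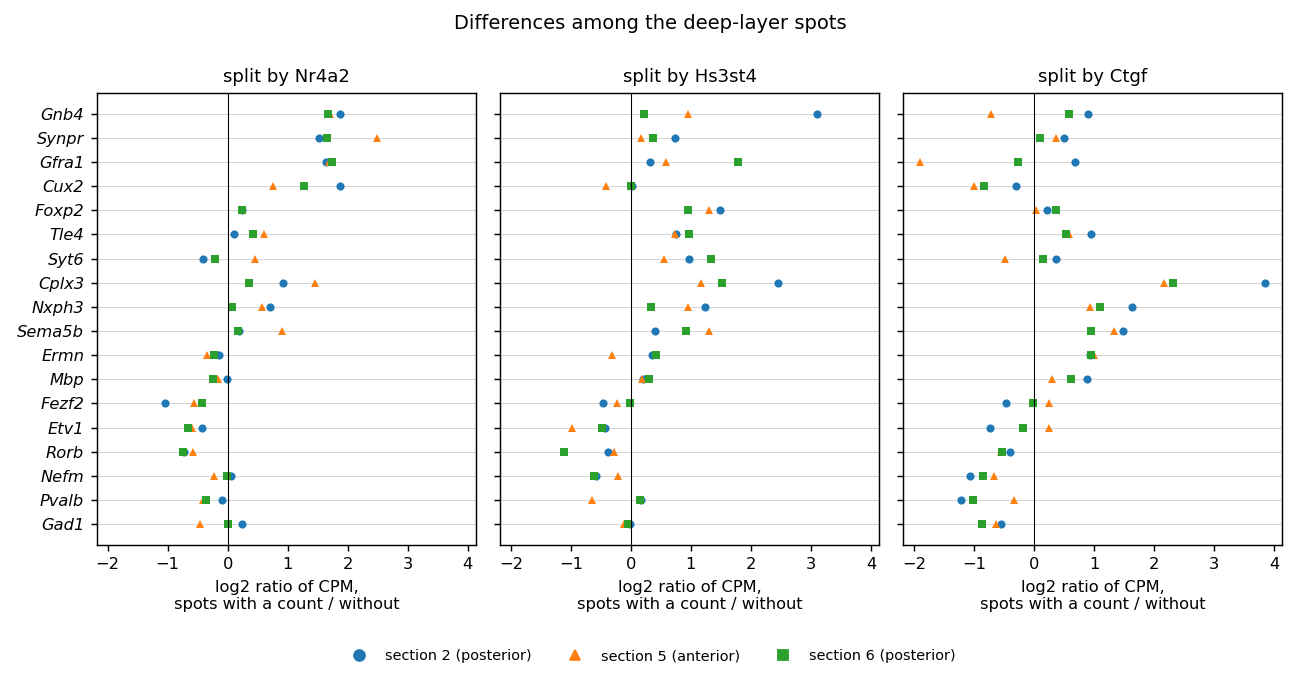
Log2 ratio of CPM between deep-layer spots with and without a count of Nr4a2, Hs3st4 or Ctgf, 1 symbol per section, for 18 genes. Gnb4, Synpr, Gfra1 and Cux2 lie to the right of 0 in every section for the Nr4a2 split, Foxp2, Tle4, Syt6 and Cplx3 for the Hs3st4 split, and Cplx3, Nxph3, Sema5b and Ermn for the Ctgf split.

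The anterior section differed from both posterior sections in few genes. There was 1 anterior section, no test was run, and levels are given with exact 95% Poisson intervals, which cover counting error only. Of 9662 genes with at least 50 counts over the 3 deep-layer sums, 13 were at least 2-fold higher in section 5 than in both posterior sections and 29 at least 2-fold lower. None of these 42 genes met the same criterion in all other spots. How many of all genes met it there was not counted, and those sums were larger, at 12468886 to 23884692 counts. In the other spots Nav3, Ppp1r12a, Kcnq1ot1 and Malat1 were also over 2-fold higher than in section 2, with log2 ratios of 1.33, 1.27, 1.29 and 1.16. Against section 6 these were 0.40, 0.29, 0.36 and 0.37. Malat1, a nuclear long noncoding RNA, had 2146 CPM (2068 to 2227) in section 5 and 863 and 983 CPM in sections 2 and 6, and in all other spots 2424 against 1088 and 1877 CPM. Kcnq1ot1, another nuclear noncoding RNA, had 70.0 CPM (56.4 to 85.8) against 27.0 and 31.5 CPM. Nav3 had 31.9 CPM (23.0 to 43.2) against 9.79 and 11.9 CPM. Among the lower genes Slc35e3 had 7.60 CPM (3.65 to 13.99) against 19.6 and 24.8 CPM, and Stat6 had 4.56 CPM (1.67 to 9.93) against 15.4 and 12.9 CPM.

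Genes described above differed in how much they varied among sections. Nr4a2, Ighm and Trbc2 varied among the 3 sections within 134 to 136, 156 to 159.9 and 97.4 to 107 CPM. Hs3st4 and Tle4 were lowest in section 5, at 138 and 106 CPM, within 2-fold of both posterior sections. Cdh9 was lower there by more than 2-fold, with 14.4 CPM (8.70 to 22.6) against 37.3 and 29.9 CPM. P2ry12, a microglial receptor, had 15.2 CPM (9.29 to 23.5) against 40.1 and 32.0 CPM, while in all other spots it had 31.5 CPM against 33.0 and 28.2 CPM. Penk had 125 CPM in section 5, between the 76.9 and 168 CPM of the posterior sections, so the posterior sections differed from each other more than from the anterior one.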

How the data were processed

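Visium counts from 3 sections of wild-type mouse brain were used. The authors deposited raw counts per gene and spot, with the section and total count of each spot. Space Ranger, Seurat, NCBIM37 and mm10 are named per the submitters' processing notes, without roles. Here spots with at least 1000 counts were ranked by the 5-gene score and their counts summed per section and group. Sums were fitted with edgeR 4.0.16 (R 4.3.3; TMM, filterByExpr, quasi-likelihood F test, section as block, Benjamini-Hochberg over 13647 or 11495 genes). Both groups of a comparison come from the same section, so the section pairs them. Sums of one section deviated together, with a median correlation of 0.41. The -0.18 between sections largely follows from this, as deviations were taken from each group's mean over the 3 sections. SE is the log2 fold change divided by the square root of F. The fit was tested on simulated data. DESeq2 1.42.0 and 10 other settings were alternatives.

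The members and the 34 gene lists were chosen with earlier results of these data known. Named genes were, per comparison, the 10 largest log2 fold changes in each direction (adjusted p under 0.05, at least 2-fold, at least 20 CPM, same direction in 3 sections), up to 4 genes per list by adjusted p, and layer and cell type markers. Genes in the splits, and a few beside these, were chosen after their values were seen. Gene positions come from RefSeq (GRCm38.p6), which matched all 538 genes looked up. No sequence was needed. Some genes of the lists are counted but not reported here by name.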

Additional observations from a re-analysis of the deposited data

Results flagged for a closer look

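In 4 results the deep-layer spots differed from their comparison one way in the anterior section and the other way in both posterior sections. Against thalamic spots, the deep-layer minus thalamic level of P2ry12 was -7.23 CPM in section 5 and 15.7 and 9.85 CPM in sections 2 and 6. For Vtn, made by pericytes, it was 7.24 CPM and -31.9 and -13.7 CPM, and for Avp, a hypothalamic peptide, 2.26 CPM and -2.03 and -29.1 CPM. Against upper-layer spots Tshz2 differed by -0.198 CPM in section 5 and by 2.34 and 3.98 CPM in the posterior sections. These differences between section positions were not tested, and the anterior position is held by 1 section.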

How the results depend on the processing

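Counts of called genes moved most with the tool. DESeq2 called 1248 higher and 1021 lower against all other spots, 340 and 322 against upper-layer spots, and 1313 and 1151 against thalamic spots. With no replicate block (the section left out, so unpaired), 1397 genes were higher against all other spots, and 461 higher and 520 lower against upper-layer spots. With 100 spots per section, 1446 were higher and 1442 lower against all other spots, and with the rule on thinned counts 517 were lower against upper-layer spots. Leaving out 1 section gave 1657 to 1848 higher and 1614 to 1787 lower against all other spots, 502 to 599 and 531 to 647 against upper-layer spots (531 lower without section 5), and 1645 to 1747 and 1557 to 1648 against thalamic spots. Limiting the other spots to the depth range of the deep-layer spots turned the log2 fold changes of Mbp (0.29), Mobp (0.30), Mal (0.15) and Lpar1 (0.33) against all other spots, and of Mobp against thalamic spots (0.080). Endou turned to 0.10 with thinned counts, and Htr2c against upper-layer spots to 0.18 with 400 spots and 0.26 with thinned counts. The cause was not tested. Without thinning, the shares of spots with a count were 43.2% for Nr4a2, 68.3% for Hs3st4 and 28.5% for Ctgf. Against section 6 alone, 49 genes were higher and 71 lower in section 5, and against section 2 alone 95 and 79. With 3 sections and few counts, genes under about 20 CPM were measured coarsely.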
